A study of Mus musculus with 6 samples.

Results

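The miRNAs described here are 4 regulators tied to NF-kB signalling in immune cells, mmu-miR-146a, mmu-miR-146b, mmu-miR-155 and mmu-miR-21, given below without the species prefix. They were chosen by probe name, with star strands left out, and make up 4 of the 566 mouse miRNA probes of the panel. They were measured in splenocytes of female NZB/WF1 mice, a hybrid strain that develops spontaneous lupus with age. The mice had received an implant releasing the natural hormone 17-beta estradiol (E2), an implant with 17alpha-ethinyl estradiol (EE, a synthetic estrogen that carries an added ethinyl group at carbon 17) or an empty implant (placebo control). All 3 groups were of the same strain and sex, were given the implant at 6 to 7 weeks of age and were terminated after 9 weeks. There were 2 samples per group and 6 in all. The sources used here give no implant dose, do not say whether the ovaries were left in place, and do not tie the samples to separate mice, so the p-values reflect only how these samples vary, which may be technical. miRNAs were counted on the nCounter platform, which reads single colour-coded molecules without amplification, and the deposited values are normalized counts.

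NF-kB is a family of transcription factors that toll-like receptors, cytokine receptors and antigen receptors switch on in immune cells. It raises the transcription of several miRNA genes, and their products act back on the pathway. miR-146a represses Traf6 and Irak1, which signal downstream of toll-like and interleukin-1 receptors, and is known as a brake on NF-kB. Mice that lack miR-146a develop autoimmunity. miR-155 is made from the transcript of its host gene when B cells, T cells and macrophages are activated. It represses Socs1 and Inpp5d (SHIP1) and is needed for normal germinal centre responses. miR-21 is induced by STAT3, AP-1 and NF-kB and represses Pdcd4. miR-146a was among the miRNAs reported as lower in splenocytes of estrogen-treated mice in earlier work, and miR-155 among those reported as higher in splenocytes of lupus-prone mice. Both are background to the present measurements.

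The mature sequences, from RefSeq on GRCm38.p6, show which members can share targets. The seed, bases 2 to 8 from the 5′ end, is in capitals.
miR-146a: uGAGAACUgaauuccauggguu
miR-146b: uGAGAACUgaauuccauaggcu
miR-155: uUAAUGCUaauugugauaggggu
miR-21: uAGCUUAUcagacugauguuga
miR-146a and miR-146b have the same seed and are identical at 20 of 22 positions. Counted from the 5′ end with miR-146a first, they differ by G18A and U21C. miR-155 and miR-21 share a seed neither with each other nor with the miR-146 pair.

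The 4 hairpins come from separate loci. That of miR-146a (gene Mir146) lies at chr11:43374397-43374461 on the minus strand and overlaps no other annotated gene. That of miR-146b (Mir146b) lies at chr19:46342762-46342870 on the plus strand and overlaps the predicted gene Gm36493. That of miR-155 (Mir155) lies at chr16:84714140-84714204 on the plus strand and overlaps its host gene Mir155hg. That of miR-21 (now Mir21a) lies at chr11:86584067-86584158 on the minus strand and overlaps Vmp1, a gene for a membrane protein of autophagy. The panel uses the names of miRBase release 15, and no probe for a star strand of the 4 hairpins was found among its names.

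Summed normalized counts over all probes were 178633 and 175477 in the E2 samples, 167152 and 168709 in the EE samples, and 205209 and 188433 in the placebo samples. These sums follow the authors' scaling, so the depth of the raw counts is unknown. Of the 566 mouse miRNAs, 95 had a mean over all samples above a detection floor of 53.3 normalized counts, set 2 SD above the average of the panel's 8 negative controls. The lymphoid markers miR-150, miR-181a and miR-342-3p were abundant and none was at 0. Their summed level was 28589 and 26756 with E2, 18297 and 17116 with EE, and 50761 and 41000 with placebo. The erythroid markers miR-144, miR-451 and miR-486 summed to 5230 and 4376 with E2, 7933 and 7187 with EE, and 1393 and 596 with placebo, and none was at 0. All 3 lymphoid markers fell and all 3 erythroid markers rose with each estrogen against placebo in limma's test over 95 miRNAs. Of all tested miRNAs, 6.32% were called lower and 4.21% higher with E2, and 15.8% lower and 10.5% higher with EE. Over the alternatives the lymphoid falls that passed with E2 numbered 0 to 3, with 0 when no detection filter was used or when values were rescaled to ligation controls or to the tested miRNAs' median, and 1 under quantile normalization and without E2 sample 2. With EE they numbered 2 under quantile normalization and 3 under the others. The erythroid rises numbered 1 with E2 under a robust variance and 3 otherwise. These are the same samples in which the members were measured. In such bulk samples fewer cells of a type and less RNA per cell cannot be told apart, and the part of these shifts in the members' values was not tested.

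miR-146a, the brake on toll-like receptor signalling, was abundant in all 6 samples. It was at 3184 and 2605 normalized counts with E2, 2658 and 2990 with EE, and 3604 and 3560 with placebo. Both samples of either estrogen lay below both placebo samples, and the E2 and EE samples overlapped. The mean was 2895 ± 409 with E2, 2824 ± 235 with EE and 3582 ± 31.1 with placebo (SD, n = 2 each). The placebo samples differed by 0.018 log2 units, the smallest placebo difference among the 95 tested miRNAs, whereas the median tested miRNA differed by 0.22 there.

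**Figure D1:**
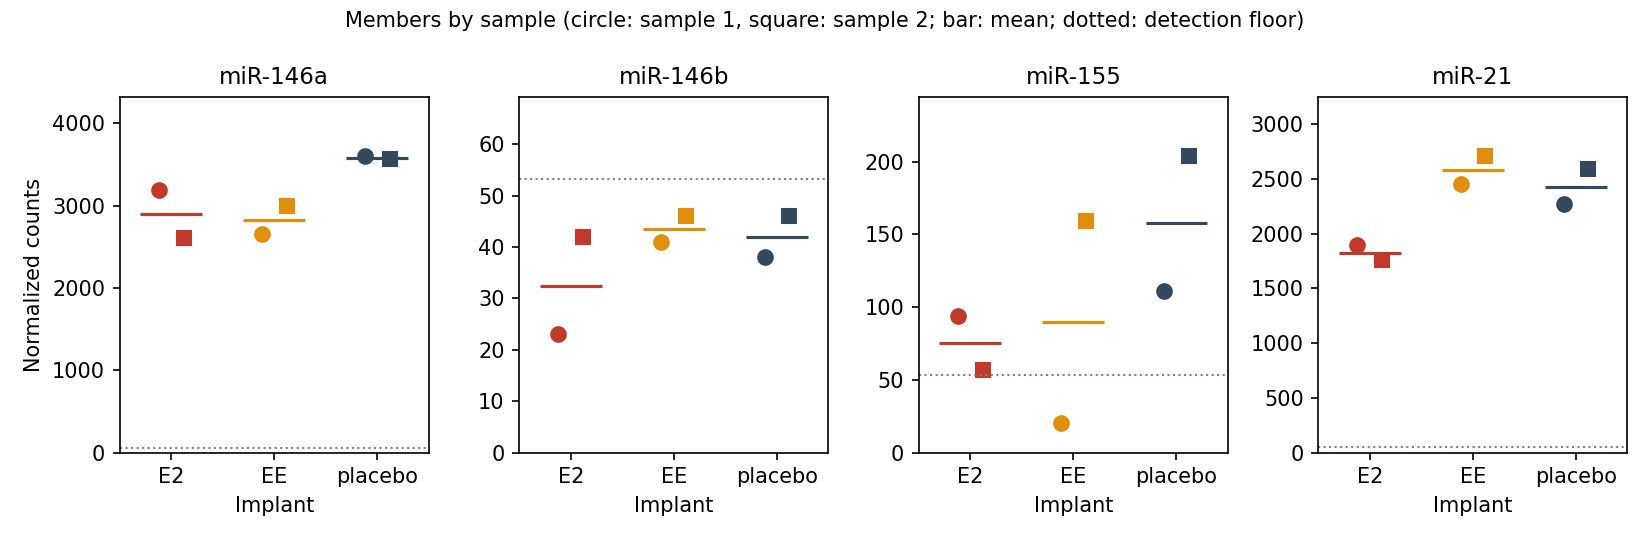
Normalized counts (y axis, from 0, a separate scale per panel) of the 4 members in each sample of the E2, EE and placebo groups (x axis). Circles and squares are samples 1 and 2, bars are group means, and the dotted line is the detection floor of 53.3. Both estrogen groups of miR-146a lie below placebo, all 6 values of miR-146b lie under the floor, miR-155 spreads from 20 to 159 within EE, and miR-21 is lowest with E2.

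miR-21, the repressor of Pdcd4, gave a different order of groups. It was at 1895 and 1755 normalized counts with E2, 2450 and 2710 with EE, and 2266 and 2586 with placebo. Both E2 samples lay below all 4 others, while EE and placebo overlapped. The mean was 1825 ± 99.0 with E2, 2580 ± 184 with EE and 2426 ± 226 with placebo (SD, n = 2 each).

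miR-155, the activation-induced member, was scarce and far more uneven. In the E2 group, sample 1 was at 94 and sample 2 at 57 normalized counts. In the EE group, sample 1 was at 20 and sample 2 at 159. In the placebo group, sample 1 was at 111 and sample 2 at 204. The E2 samples lay below both placebo samples, whereas the EE samples held both the lowest value of the series and a value between the 2 placebo samples. The mean was 75.5 ± 26.2 with E2, 89.5 ± 98.3 with EE and 157.5 ± 65.8 with placebo (SD, n = 2 each), so the EE mean describes neither of its samples.

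The EE sample 1 value of 20 was not distinguishable from background. The 8 negative control probes of that sample ran from 7 to 59, and 4 of them were at or above 20. The other 5 samples had no negative control probe at or above their miR-155 value, although E2 sample 2, at 57, stood just above the floor of 53.3. With the lower EE value raised to the floor of 53.3, the 2 EE samples differed by 2.98-fold. The negative controls of EE sample 1 alone put its floor at 61.0, and with that floor the 2 EE samples would differ by less. Taken as deposited they differed by 7.95-fold, or 2.93 log2 units, the largest EE difference among the 95 tested miRNAs. The next largest in EE was 0.95 log2 units, for miR-376a, named here after its values were seen, and the median was 0.16.

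The unevenness of miR-155 was also present outside the EE group, at a smaller size. Its samples differed by 0.71 log2 units in E2, the third largest difference of 95, and by 0.87 in placebo, the fourth largest. miR-146a differed by 0.29 log2 units in E2 and 0.17 in EE, ranks 24 and 46. miR-21 differed by 0.11 in E2, 0.15 in EE and 0.19 in placebo, ranks 70, 49 and 57. Neither reached the within-group difference of miR-155 in any group.

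**Figure D2:**
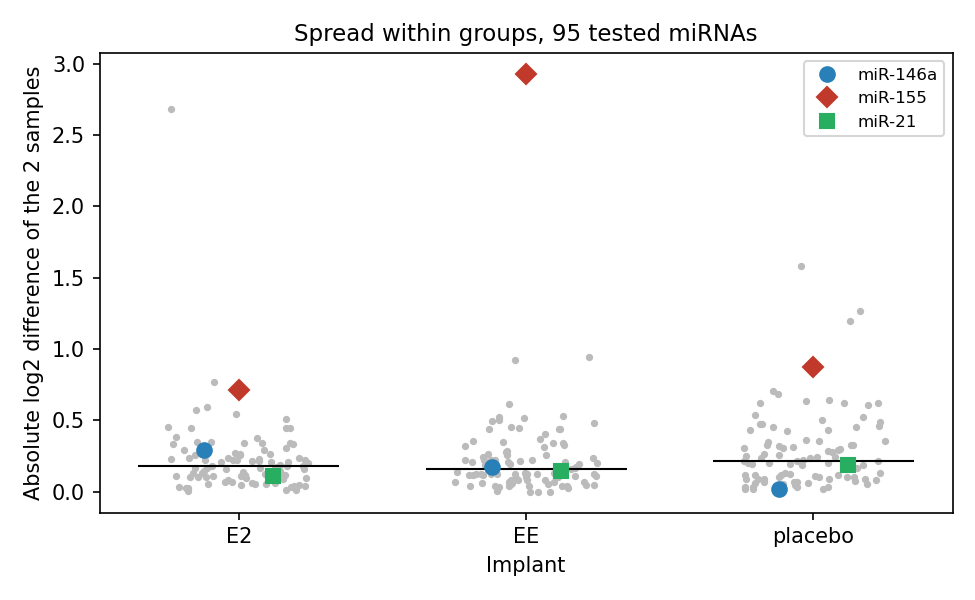
Absolute log2 difference between the 2 samples of a group (y axis) for the 95 tested miRNAs in the E2, EE and placebo groups (x axis). Grey points are other miRNAs, coloured symbols the 3 tested members, and lines the group medians. miR-155 stands at 2.93 in EE, above every other miRNA of that group, and miR-146a at 0.018 in placebo.

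Other measures of EE samples 1 and 2 were closer to each other than miR-155 was. The lymphoid sums were 18297 and 17116, the erythroid sums 7933 and 7187, and miR-146a stood at 2658 and 2990. Within the erythroid list miR-144 went the other way from the sum, at 430 and 815. Its difference of 0.92 log2 units was the third largest in EE. The geometric mean of the positive ligation controls was 2403 in EE sample 1 and 3208 in EE sample 2, and that of the 4 housekeeping mRNAs was 1333 and 1045. The part of these control values in the miR-155 difference was not tested. Groups of 2 allow no test for an outlying sample.

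miR-146b, which shares its seed with miR-146a, was under the floor in all 6 samples. It was at 23 and 42 normalized counts with E2, 41 and 46 with EE, and 38 and 46 with placebo, where the floor is 53.3. At least 1 of the 8 negative control probes was at or above it in each sample but placebo sample 2, whose highest negative control was 43. The groups overlapped in every pair. In a limma fit without the filter, its log2 fold changes were -0.41 for E2 against placebo, 0.053 for EE against placebo and 0.47 for EE against E2, with adjusted p-values of 0.704, 0.965 and 0.862. Values this near the background carry no reliable fold.

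E2 was first set against placebo, to see which members differ after long exposure to the natural hormone. All 3 tested members were lower with E2 and none passed the threshold, an adjusted p of 0.05 in limma's moderated test on log2(value + 1) with Benjamini-Hochberg adjustment over 95 miRNAs. Over all tested miRNAs 10.5% were called in that comparison, 4.21% higher and 6.32% lower. miR-21 had a log2 fold change of -0.41 ± 0.15 (SE), that is 1.33-fold lower, with an adjusted p of 0.109 and an unadjusted p of 0.0204. It was the only member under an unadjusted 0.05, a mark that 21.1% of all tested miRNAs met. With quantile normalization its log2 fold change was -0.63 and passed (adjusted p 0.00878), and with rescaling by the positive ligation controls it was -0.090 (adjusted p 0.986).

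miR-146a had a log2 fold change of -0.31 ± 0.15 (SE) and an adjusted p of 0.221, with -0.17 without E2 sample 2 and 0.0043 with rescaling by the positive ligation controls. miR-155 had -1.03 ± 0.71 (SE) and an adjusted p of 0.335. The 95% interval of its fold, 0.165 to 1.46, spans both a large decrease and an increase. For each of the 3, both E2 samples lay below both placebo samples, a pattern that 45.3% of all tested miRNAs showed. The median log2 fold change of the 95 was -0.20, so miR-146a lay close to the centre of the panel.

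The standard error of miR-155 carries the spread of the EE samples, since all 3 groups share a variance in the fit, and it is also drawn towards that of other miRNAs by a prior weight. With E2 and placebo alone in the fit, the log2 fold change stayed at -1.03, its SE was 0.29 and its adjusted p 0.0175, which passed. The prior degrees of freedom were then 17.2 in place of 7.5, so that SE leans more on other miRNAs. With all samples and limma's robust variance, the SE was 1.28 and the adjusted p 0.625. With all samples miR-155 passed under rescaling by housekeeping mRNAs (adjusted p 0.00446) and by positive assay controls (adjusted p 0.00253), where the prior weight was infinite. Without EE sample 1 the adjusted p was 0.0202, and without EE sample 2 it was 0.0213. Without placebo sample 2 the log2 fold change was -0.59, with an adjusted p of 0.638.

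EE was then set against placebo, for the effect of the synthetic estrogen. No member passed in limma's test, against 26.3% of all tested miRNAs, 10.5% higher and 15.8% lower. miR-146a had a log2 fold change of -0.35 ± 0.15 (SE), or 1.27-fold lower, with an adjusted p of 0.128 and an unadjusted p of 0.0428. It was the only member under an unadjusted 0.05, which 36.8% of all tested miRNAs met. Its 2 EE samples lay below both placebo samples, as did those of 36.8% of tested miRNAs. The value ran from -0.55 with ligation controls to -0.12 with quantile normalization. miR-21 had a log2 fold change of 0.090 ± 0.15 (SE) and an adjusted p of 0.634, with a 95% interval of the fold of 0.846 to 1.34, and alternatives gave either sign, from -0.11 to 0.20.

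miR-155 had the widest uncertainty, a log2 fold change of -1.39 ± 0.71 (SE) with an adjusted p of 0.172 against placebo. Its direction rested on EE sample 1. Without that sample the log2 fold change was 0.079 (adjusted p 0.890), and without EE sample 2 it was -2.85 (adjusted p 3.54e-06), in fits where the lone EE sample is assumed to vary like the other groups. With values under the floor set to the floor it was -0.70 (adjusted p 0.218). Under limma's robust variance it stayed at -1.39, with an SE of 1.28 and an adjusted p of 0.516. It passed under rescaling by housekeeping mRNAs (-1.28, adjusted p 0.00227) and by positive assay controls (-1.52, adjusted p 2.71e-05). In those fits limma estimated an infinite prior weight, gave all miRNAs of like level the same variance, and so left out miR-155's own spread. These data therefore set no direction for miR-155 with EE.

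**Figure D3:**
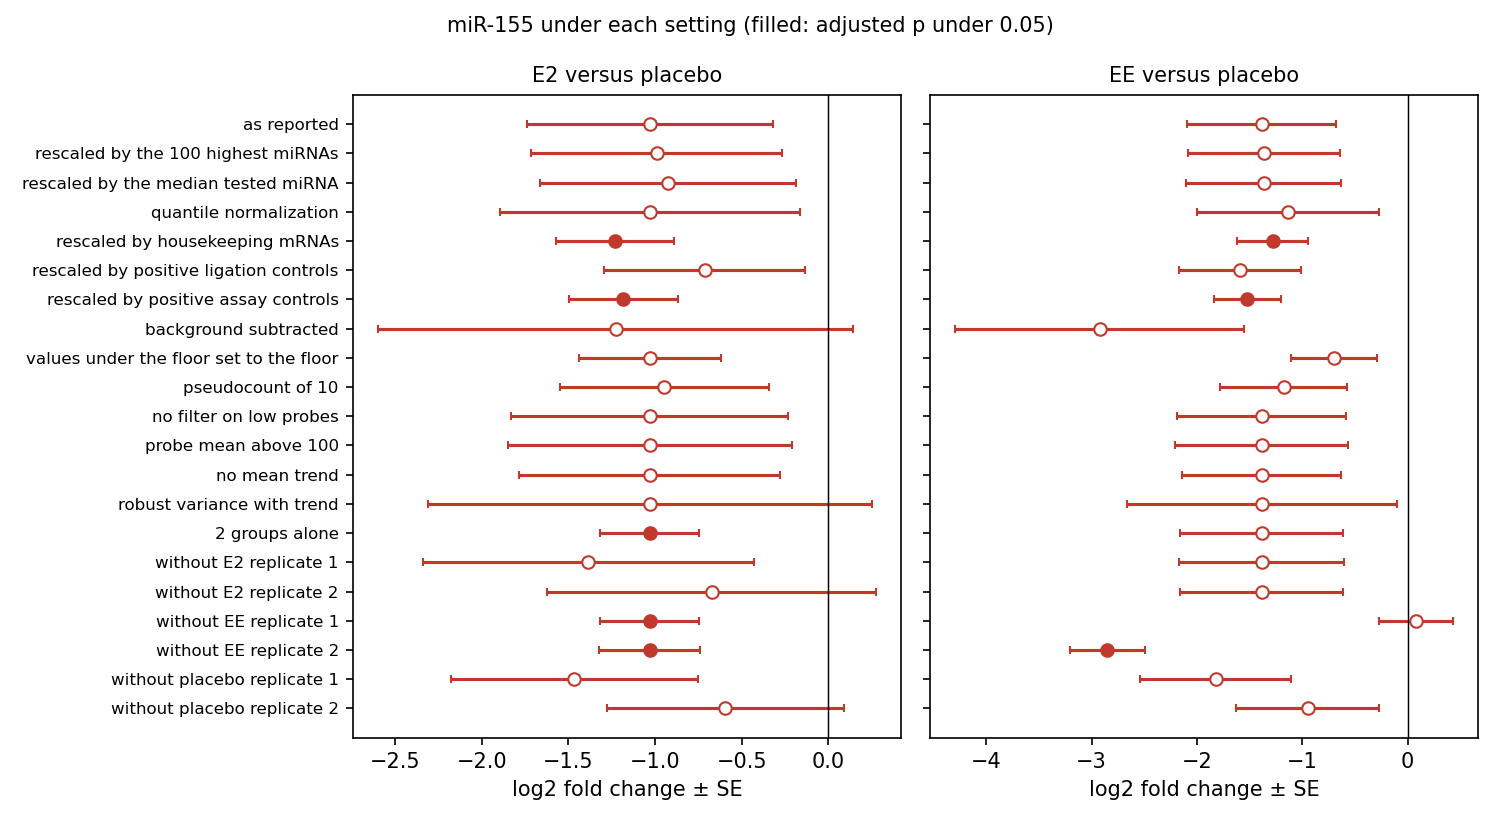
log2 fold change of miR-155 with its SE (x axes) for E2 against placebo and EE against placebo under each processing setting (y axis). Filled points have an adjusted p under 0.05. The E2 estimates run from -1.47 to -0.59, and the EE estimates from -2.92 to 0.079, with the highest of them in the fit without EE sample 1.

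EE was last set directly against E2, from which it differs by the ethinyl group. Whether doses were matched is not known, and the values below are not a difference in potency. No member passed in limma's test, against 7.37% of all tested miRNAs, 3.16% higher and 4.21% lower. miR-21 came nearest, at 2450 and 2710 normalized counts with EE against 1895 and 1755 with E2. Its log2 fold change was 0.50 ± 0.15 (SE), or 1.41-fold higher, with a 95% interval of 1.12 to 1.78 for the fold. The adjusted p was 0.0755 and the unadjusted p 0.00715, and 18.9% of all tested miRNAs were under an unadjusted 0.05. Both EE samples lay above both E2 samples, as did those of 26.3% of the tested miRNAs.

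The miR-21 difference crossed the threshold in 5 alternatives. The adjusted p was 0.0282 with EE and E2 alone in the fit, 0.0340 with a robust variance, 0.0247 without placebo sample 1, 0.0258 without placebo sample 2 and 0.00987 with quantile normalization. With rescaling by the positive ligation controls the log2 fold change was -0.025 (adjusted p 0.950). Those controls read higher in the EE samples, at 2403 and 3208, than in the E2 samples, at 1840 and 2027.

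miR-146a differed between EE and E2 by a log2 fold change of -0.031 ± 0.15 (SE, adjusted p 0.919), with a 95% interval of 0.778 to 1.23 for the fold. With ligation controls that log2 fold change was -0.55 (adjusted p 0.192), and with housekeeping mRNAs 0.28 (adjusted p 0.543). miR-155 differed by -0.36 ± 0.71 (SE, adjusted p 0.846), with an interval of 0.263 to 2.32. Neither interval shows that the 2 estrogens gave the same level. Without EE sample 1 the miR-155 value was 1.11, and without EE sample 2 it was -1.82, which are opposite directions.

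**Figure D4:**
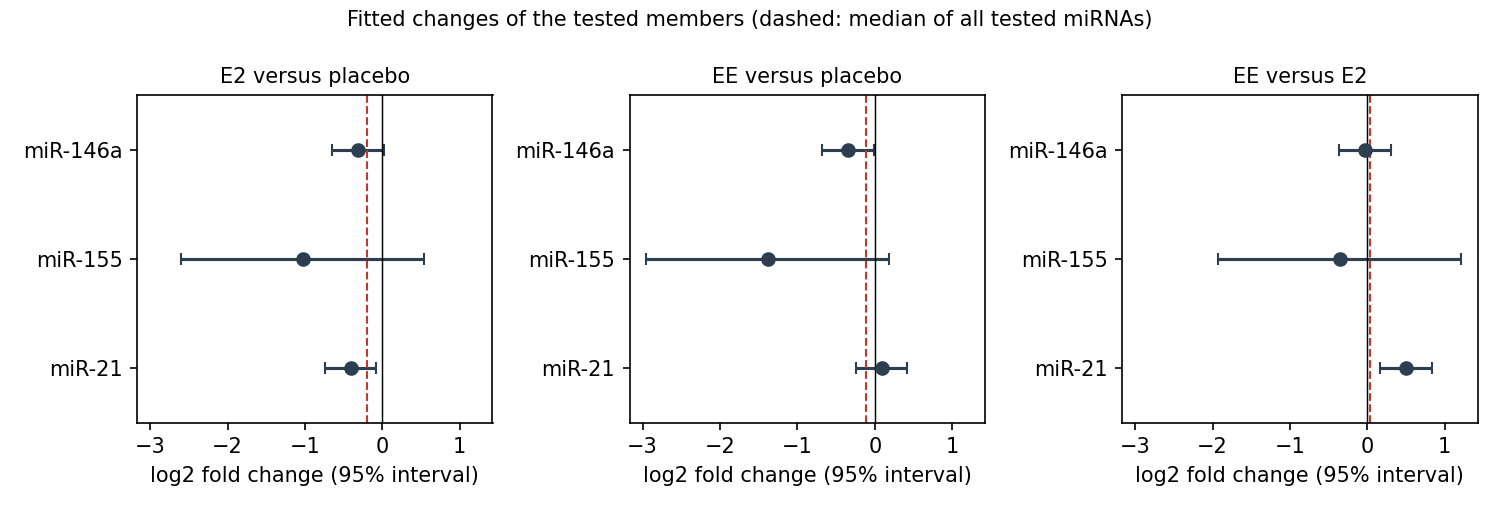
log2 fold changes of the 3 tested members with 95% intervals (x axes) for E2 against placebo, EE against placebo and EE against E2. Dashed lines mark the median of the 95 tested miRNAs, at -0.20, -0.11 and 0.031. The intervals of miR-155 span 0 in every comparison, and those of miR-21 exclude 0 for E2 against placebo and EE against E2, before adjustment.

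Since the scaling of the samples moves every fold change, ratios between members within a sample were also taken, a measure added after the values were seen that no rescaling of a sample can alter. The ratio of miR-21 to miR-146a was 0.595 and 0.674 with E2, 0.922 and 0.906 with EE, and 0.629 and 0.726 with placebo. Both EE ratios lay above all 4 others, and E2 and placebo overlapped. On the mean of log2 ratios, EE was 1.35-fold above placebo and 1.44-fold above E2. Among ratios of the 94 other tested miRNAs to miR-146a, 48.9% had both EE samples above both placebo samples and 24.5% had both EE samples above both E2 samples. With 2 samples a group the smallest two-sided p of an exact permutation test is 0.333, so none was run.

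The ratio of miR-155 to miR-146a was 0.0295 and 0.0219 with E2, 0.00752 and 0.0532 with EE, and 0.0308 and 0.0573 with placebo. The E2 ratios lay below both placebo ratios, with E2 sample 1 close to placebo sample 1. How many other tested miRNAs show this pattern in their ratio to miR-146a was not computed. The ratio of EE sample 1 rests on the miR-155 value under the floor, so its size is uncertain.

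**Figure D5:**
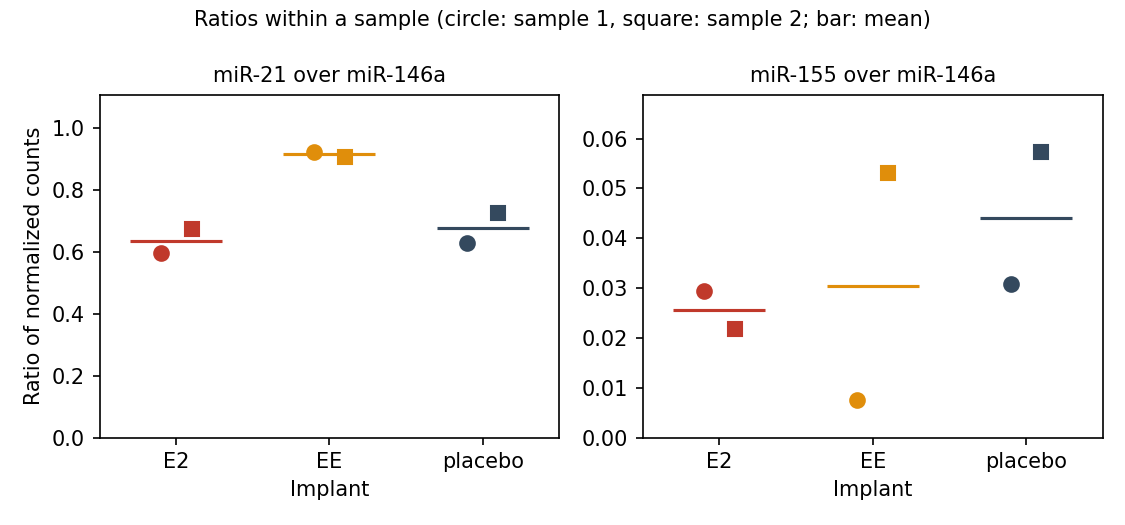
Ratio of normalized counts within a sample (y axes, from 0) of miR-21 to miR-146a and of miR-155 to miR-146a in the E2, EE and placebo groups (x axis). Circles and squares are samples 1 and 2 and bars are means. The EE ratios of miR-21 to miR-146a, 0.922 and 0.906, lie above all others, while the lower EE ratio of miR-155 to miR-146a, 0.00752, rests on a miR-155 value under the floor.

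As a share of all mouse miRNA signal, miR-146a made up 2.46% and 2.16% with E2, 2.34% and 2.68% with EE, and 2.38% and 2.56% with placebo. On that scale its groups overlapped. miR-21 made up 1.46% and 1.45% with E2, 2.16% and 2.43% with EE, and 1.498% and 1.859% with placebo. Its EE shares lay above all others and its E2 shares below all others, though E2 sample 1 at 1.46% was close to placebo sample 1 at 1.498%. How many of the tested miRNAs separate in this way on that scale was not computed. Shares depend on the lymphoid markers, which alone made up 22.1% of the signal in both E2 samples, 16.1% and 15.3% in the EE samples, and 33.6% and 29.5% in the placebo samples.

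The tested miRNAs whose profile over the 6 samples was most like each member were found by the root mean square difference of centred log2 values. For miR-146a they were miR-350 (0.070 log2 units), miR-532-5p (0.094) and miR-29a (0.0996), against a median of 0.27 over all others. For miR-21 they were miR-30a (0.054), miR-29c (0.10) and let-7e (0.10), against a median of 0.30. miR-155 had no close match. Its nearest were miR-142-3p (0.82), miR-2132 (0.86) and let-7a (0.88), against a median of 1.07. These distances take in the EE sample 1 value of 20, which was not distinguishable from background, so they say little about which miRNAs resemble miR-155.

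Among 12 miRNAs known to be induced by toll-like receptor or NF-kB signalling, all on the panel, 2 were above the floor, let-7e and miR-125a-5p. The 10 under it included miR-132, miR-147, miR-221 and miR-301a, the last with a mean of 48.7 normalized counts. Neither tested member of the list passed in limma's test in any comparison as fitted here. miR-125a-5p was at 39 and 41 normalized counts with E2, 68 and 50 with EE, and 66 and 63 with placebo, so both E2 samples were under the floor. Its unadjusted p was 0.0150 for E2 against placebo (adjusted p 0.102) and 0.0438 for EE against E2 (adjusted p 0.231). For E2 against placebo it passed with housekeeping mRNAs (adjusted p 0.0194) and positive assay controls (adjusted p 0.0319), and for EE against E2 with housekeeping mRNAs (adjusted p 0.0492). With values under the floor set to the floor, its log2 fold change for E2 against placebo was -0.27 in place of -0.68. The list's 2 tested members had a median log2 fold change of -0.54 for E2 against placebo, -0.089 for EE against placebo and 0.45 for EE against E2, where all tested miRNAs had -0.20, -0.11 and 0.031.

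Of 9 miRNAs reported to target components of the NF-kB pathway, 7 were tested. With E2 against placebo 1 rose and 1 fell, where 4.21% of all tested miRNAs were called higher and 6.32% lower. miR-223, a miRNA of neutrophils reported in human monocytes to repress the kinase subunit IKK-alpha, was at 3522 and 3244 normalized counts with E2 against 1308 and 911 with placebo (adjusted p 1.13e-04). miR-125b-5p, reported to repress Tnf in mouse macrophages, was at 30 and 45 with E2 against 75 and 71 with placebo (adjusted p 0.0247), and both E2 values were under the floor. The miR-125b-5p call ended in 8 of 19 alternatives, with adjusted p-values of 0.0516 to 0.348. Without E2 sample 1 the adjusted p was 0.212, without placebo sample 1 it was 0.0636, and without placebo sample 2 it was 0.0548.

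With EE against placebo 2 of the 7 rose and none fell, where 10.5% of all tested miRNAs were called higher and 15.8% lower. miR-223 was at 1984 and 2042 normalized counts with EE (adjusted p 0.00424), and the call ended in 3 of 20 alternatives, all rescalings, with adjusted p-values of 0.0531 to 0.180. miR-15a, of the miR-15/16 family that restrains Bcl2, was at 1759 and 1444 with EE against 1223 and 962 with placebo (adjusted p 0.0433), and its call ended in 14 of 20 alternatives, among them the fits without either E2 sample, without either EE sample and without placebo sample 2. Between EE and E2, miR-125b-5p was higher with EE (adjusted p 0.0121) and miR-223 lower with EE (adjusted p 0.0320), where 7.37% of all tested miRNAs were called. The miR-223 call ended in 10 of 20 alternatives, with adjusted p-values of 0.0633 to 0.479, which include the fits that left out any 1 of the 4 estrogen samples. The miR-125b-5p call ended in 4 of 19, with adjusted p-values of 0.0700 to 0.167, among them the fit without E2 sample 1. The list's median was -0.051, -0.12 and -0.032 in the 3 comparisons, where all tested miRNAs had -0.20, -0.11 and 0.031.

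Of 7 miRNAs reported as raised in splenocytes of lupus-prone mice, miR-155 alone was above the floor. The other 6, miR-96, miR-182, miR-183, miR-31, miR-127 and miR-379, had means of 5.67 to 29.8 normalized counts over all samples.

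The markers of the remaining cell types moved unevenly beside the members. Against placebo, 4.21% of all tested miRNAs were called higher and 6.32% lower with E2. With EE 10.5% were called higher and 15.8% lower. The 4 myeloid markers, all tested, summed to 4738 and 4371 with E2, 2993 and 3017 with EE, and 2743 and 2205 with placebo. In that list 1 rose with E2, and 1 rose and 1 fell with EE. The riser was miR-223 in both, at 3522 and 3244 with E2, 1984 and 2042 with EE, and 1308 and 911 with placebo. The log2 fold changes of miR-23a, miR-24 and miR-27a were -0.36, -0.24 and -0.030 with E2. With EE they were -0.62, 0.15 and -0.33, and miR-23a was the marker that fell. Of 2 leukocyte-wide markers, miR-142-3p fell with each estrogen, with log2 fold changes of -0.60 with E2 and -0.90 with EE. The other, miR-142-5p, passed with neither, at 0.35 and 0.27. They summed to 5183 and 4542 with E2, 3540 and 4474 with EE, and 7142 and 7417 with placebo, most of it miR-142-3p. With E2, 0 of the tested miRNAs were called lower under ligation-control or median rescaling or without the filter. The endothelial markers summed to 115 and 100 with E2, 166 and 193 with EE, and 84 and 84 with placebo, and the 1 of 2 that was tested rose with EE. The 3 stromal and smooth muscle markers, 2 of them tested, summed to 104 and 121 with E2, 230 and 249 with EE, and 177 and 176 with placebo. Of these, miR-145 rose with EE and miR-125b-5p fell with E2. Both E2 values of miR-125b-5p were under the floor, and that call ended in 8 of 19 alternatives. Markers of muscle and liver were all under the floor. Of 2 epithelial markers 1 was tested, and it passed in no comparison. Between EE and E2, 3.16% of all tested miRNAs were called higher with EE and 4.21% lower. There, 2 of 3 lymphoid and 1 of 4 myeloid markers were lower with EE. The 1 tested endothelial and the 2 tested stromal markers were higher, and no erythroid or leukocyte-wide marker was called. Under median rescaling 0 miRNAs were called in that comparison. The part of these shifts in the levels of miR-146a, miR-155 and miR-21 was not tested.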

How the data were processed

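Total RNA of splenocytes was profiled on version 1.5 of the nCounter mouse miRNA panel, per the labels. The deposited table holds scores, whole numbers for 626 probes in 6 samples, read here as normalized counts. The sources used here do not give the authors' normalization, background correction or rounding. The geometric mean of the 100 highest miRNAs differed by 3.54% between samples and the summed positive controls by 30.6%, so no count model was fitted. Raw depth is unknown, and no counting intervals were computed.

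limma 3.58.1 in R 4.3.3 (lmFit, eBayes with a mean trend) was run on log2(value + 1), with all 6 samples and 3 groups in a single fit, over 95 mouse miRNAs whose mean exceeded 53.3, the mean + 2 SD of 8 negative control probes. The fit had 7.50 prior and 10.5 total degrees of freedom. Tests were two-sided and adjusted by Benjamini-Hochberg at 0.05. They were checked on simulated data in which all miRNAs had the same spread and changes were placed in E2 alone. That check does not cover a miRNA as uneven as miR-155. Fold changes on this scale understate those of low probes. Named beyond the members were the 3 tested miRNAs of most similar profile to each, and list members past the threshold or, where none was, the 2 of smallest p. Members, lists and alternatives were chosen with earlier results of these data known. Probe names were matched to RefSeq by hand for the 4 members, taking unsuffixed names as the 5p strand. Values of different probes differ in capture and were not ranked against each other.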

Additional observations from a re-analysis of the deposited data

How the results depend on the processing

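Results were recomputed under 20 alternatives, or 19 for miR-125a-5p and miR-125b-5p and 17 for miR-146b, since the others gave these no separate value. Of these, rescaling by positive assay controls and setting values under the floor to the floor were chosen after seeing the data. No paired analysis was possible because the labels give the groups no shared replicate numbers. The groups of 2, the unknown raw depth and the unstated scaling limit every value, and miR-155 and miR-146b lie near the background.

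Calls for E2 against placebo numbered 10 (4 higher, 6 lower). They were 4 with rescaling by the median tested miRNA and 4 with ligation controls, all higher, 5 without the filter, 12 with quantile normalization (7 higher, 5 lower), and 6 to 12 when a sample was left out. Calls for EE against placebo numbered 25 (10 higher, 15 lower). They were 15 with median rescaling, 16 with housekeeping mRNAs, 11 with ligation controls (3 higher, 8 lower), 21 with positive assay controls (6 higher, 15 lower), 14 without the filter, 16 with a mean above 100, and 15 to 23 when a sample was left out. Calls for EE against E2 numbered 7 (3 higher, 4 lower). In limma's test they were 0 with median rescaling (15 at an unadjusted p under 0.05), 3 with ligation controls (all lower), 5 with housekeeping mRNAs (all higher), 5 with positive assay controls (3 higher, 2 lower), 6 with quantile normalization (4 higher, 2 lower), 0 without the filter (37 at an unadjusted p under 0.05), 1 with a mean above 100, 12 with 2 groups alone, and 0 to 12 when a sample was left out, with the 0 without E2 sample 1 (10 at an unadjusted p under 0.05).

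miR-155 for E2 against placebo passed with housekeeping mRNAs (-1.23), positive assay controls (-1.18) and 2 groups alone (-1.03), and ran from -1.47 to -0.59 when a sample was left out. For EE against placebo it passed with housekeeping mRNAs (-1.28) and positive assay controls (-1.52), and ran from -2.85 to 0.079 when a sample was left out. For EE against E2 it was 0.33 with values under the floor set to the floor, and ran from -1.82 to 1.11 when a sample was left out. miR-21 passed with quantile normalization for E2 against placebo (-0.63) and EE against E2 (0.70), with -0.090 for E2 against placebo under ligation controls, and for EE against E2 with a robust variance (0.50) and 2 groups alone (0.50). Its EE against E2 value was -0.025 with ligation controls and ran from 0.43 to 0.57 when a sample was left out. For EE against placebo miR-21 was -0.11 with ligation controls, -0.048 with positive assay controls and -0.0052 to 0.19 when a sample was left out. miR-146a was 0.0043 with ligation controls for E2 against placebo, and -0.46 to -0.17 when a sample was left out. For EE against E2 it was 0.16 with quantile normalization, 0.28 with housekeeping mRNAs, -0.55 with ligation controls and -0.18 to 0.11 when a sample was left out. miR-146a passed in none of the alternatives.

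miR-146b, in fits without the filter, was -0.84 to 0.0063 for E2 against placebo and -0.081 to 0.19 for EE against placebo when a sample was left out. It was -0.15 with ligation controls and -0.082 with positive assay controls for EE against placebo, and -0.041 with ligation controls for EE against E2. let-7e for EE against placebo was 0.016 with quantile normalization, 0.071 with housekeeping mRNAs and -0.13 to 0.058 when a sample was left out, and -0.16 with ligation controls for EE against E2. miR-125a-5p for EE against placebo was -0.36 to 0.075 when a sample was left out, and it passed with housekeeping mRNAs for E2 against placebo (-0.88) and EE against E2 (0.84) and with positive assay controls for E2 against placebo (-0.83). miR-15a for EE against E2 was -0.041 with median rescaling, -0.48 with ligation controls, -0.021 without E2 sample 2 and -0.095 without EE sample 1. The causes of these changes were not tested, beyond the fewer samples or miRNAs that a setting leaves and the shared variance described for miR-155.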
